A study of Homo sapiens with 7 samples.

Results

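The DMSO vehicle line and the drug naive line, the 2 controls of a series on dasatinib resistance, were compared with each other in the deposited table of read counts. K562 cells are an established line of chronic myeloid leukemia, driven by the fusion kinase BCR::ABL1, which dasatinib inhibits. The drug naive line was K562 that had met no drug, and the DMSO line was K562 kept in the solvent of the drug, alongside the K562 DasR lines, which had been grown in rising dasatinib and were sequenced at 10, 15, 25, 50 and 200 nM. All 7 lines share the BCR::ABL1 background, and each was sequenced once. Of the 25702 genes in the table, 10163 had at least 10 CPM (counts scaled to the size of the library) in either control line and were kept, and the other 15539 were under that level in both. ARID5B, with 10.03 CPM in the DMSO line, lay just inside the limit, and MFSD5, with 9.996 CPM in the drug naive line, just outside it. The drug naive library held 21007761 counts and the DMSO library 24037893. Because each line is 1 library, no test of the difference between the lines was possible. Every ratio is a description of the 2 libraries, and its 95% interval (exact binomial) covers counting error only. How long the drug naive line had been in culture when it was sampled is not given in the sources used here, so solvent, time in culture and library cannot be told apart.

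A solvent control line and an untreated line show how far 2 libraries of a cell line lie apart with no drug in the medium. For every gene that separates them the ratio of a resistant line depends on which control is chosen. Several groups of genes are known to follow the state of a culture. Genes under hypoxia-inducible factor (HIF) encode glycolytic enzymes and proteins that limit mitochondrial respiration, genes under SREBP2 encode the cholesterol synthesis pathway and are raised when cell sterol is low, and metallothioneins, small proteins that bind zinc and copper, are raised by the metal sensor MTF1. Cells in growth raise genes of ribosome assembly and DNA replication, many of them targets of MYC.

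The largest ratios were in metallothioneins, and the list with the lowest median, among those with at least 10 kept members, was that of glycolysis and hypoxia genes, so the promoters of 4 of these genes are shown. Each is 300 bases long, from 250 bases before to 50 after a RefSeq transcription start in GRCh38.p14, printed 5′ to 3′ on the strand of the gene. Capitals mark the metal response core in MT1X and MT2A (TGCGCNC or TGCACNC, on either strand) and the hypoxia response core in ALDOC and LDHA (ACGTG or GCGTG, on either strand). The hypoxia core lies inside the E-box CACGTG, so that an E-box counts on both strands, and it can share letters with a metal core on the other strand. MT1X is at chr16:56682220-56682519 and MT2A at chr16:56608334-56608633, both on the plus strand. ALDOC is at chr17:28576846-28577145 on the minus strand and LDHA, its first listed window, at chr11:18394313-18394612 on the plus strand.
MT1X: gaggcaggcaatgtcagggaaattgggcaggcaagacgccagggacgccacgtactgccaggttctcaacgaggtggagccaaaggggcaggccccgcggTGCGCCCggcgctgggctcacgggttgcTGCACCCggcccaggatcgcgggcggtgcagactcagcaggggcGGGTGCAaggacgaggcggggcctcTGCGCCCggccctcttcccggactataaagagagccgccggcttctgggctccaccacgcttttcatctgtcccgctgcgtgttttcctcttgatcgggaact
MT2A: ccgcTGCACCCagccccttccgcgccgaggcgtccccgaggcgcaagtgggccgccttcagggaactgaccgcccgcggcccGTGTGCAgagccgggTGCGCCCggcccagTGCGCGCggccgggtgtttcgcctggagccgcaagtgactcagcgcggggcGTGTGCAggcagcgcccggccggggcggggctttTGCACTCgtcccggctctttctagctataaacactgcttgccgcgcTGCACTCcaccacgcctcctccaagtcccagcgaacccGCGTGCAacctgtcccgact
ALDOC: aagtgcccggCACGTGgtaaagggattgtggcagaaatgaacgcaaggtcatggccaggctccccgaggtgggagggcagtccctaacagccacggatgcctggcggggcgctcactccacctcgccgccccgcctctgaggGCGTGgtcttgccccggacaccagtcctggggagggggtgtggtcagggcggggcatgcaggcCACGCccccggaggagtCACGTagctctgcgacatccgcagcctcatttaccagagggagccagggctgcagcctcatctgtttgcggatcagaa
LDHA: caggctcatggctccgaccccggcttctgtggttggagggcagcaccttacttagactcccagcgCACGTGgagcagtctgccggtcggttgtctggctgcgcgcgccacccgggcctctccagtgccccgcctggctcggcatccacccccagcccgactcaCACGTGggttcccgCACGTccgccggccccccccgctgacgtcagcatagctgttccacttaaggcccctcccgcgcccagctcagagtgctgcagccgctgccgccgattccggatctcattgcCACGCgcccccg

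The metal response core was found 4 times in the MT1X window and 8 times in that of MT2A, and 29.6% of all 35116 RefSeq promoter windows held it. The hypoxia response core was found 5 times in the ALDOC window and 6 times in that of LDHA, whose second listed window (chr11:18396101-18396400) held it once, and 48.4% of all windows held it. Among windows of the kept genes the shares were 37.4% for the metal and 62.4% for the hypoxia core. Among those of the genes at least 2-fold lower in the DMSO line they were 34.3% and 59.3%. The hypoxia core was in 67.3% of the 55 windows of the glycolysis and hypoxia list, and in 78.6% of the 14 of its 2-fold lower members. Some genes have several windows. With only the first listed window of each gene, the share was 70% of 30 genes of the list and 70% of 10 of its 2-fold lower members. It was 65.3% of the kept genes counted in that way. The metal core was in 50% of the 8 windows of the metallothionein and zinc carrier list, and in all 3 of its 2-fold lower members. The hypoxia response core was found once in the ENO2 window, once in that of P4HA1 and not at all in that of EGLN3. A sterol response core (TCACNCCAC, on either strand) was in 1.13% of all windows and in neither HMGCS1 nor MSMO1. These matches describe letters in a window and do not show binding.

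The controls were close in most genes. The libraries are bulk RNA, in which fewer cells of a kind and less RNA per cell cannot be told apart. Of the 10163 genes, 73.7% lay within 1.2-fold and 95.6% within 1.5-fold, the median log2 ratio of DMSO over drug naive was 0.01, and the standard deviation of log2 ratios across genes was 0.30. At least 2-fold apart were 112 genes (1.10%), of which 103 were lower in the DMSO line (1.01%) and 9 higher (0.0886%). At least 1.5-fold apart were 329 genes lower (3.24%) and 119 higher (1.17%) in the DMSO line. The counting interval lay wholly beyond 2-fold for 66 of the lower genes and 4 of the higher genes. Of the 103 lower genes, 51 reached 10 CPM in the drug naive line alone, and of the 9 higher genes 4 reached it in the DMSO line alone, so that the level limit itself favoured a difference in that direction.

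**Figure D1:**
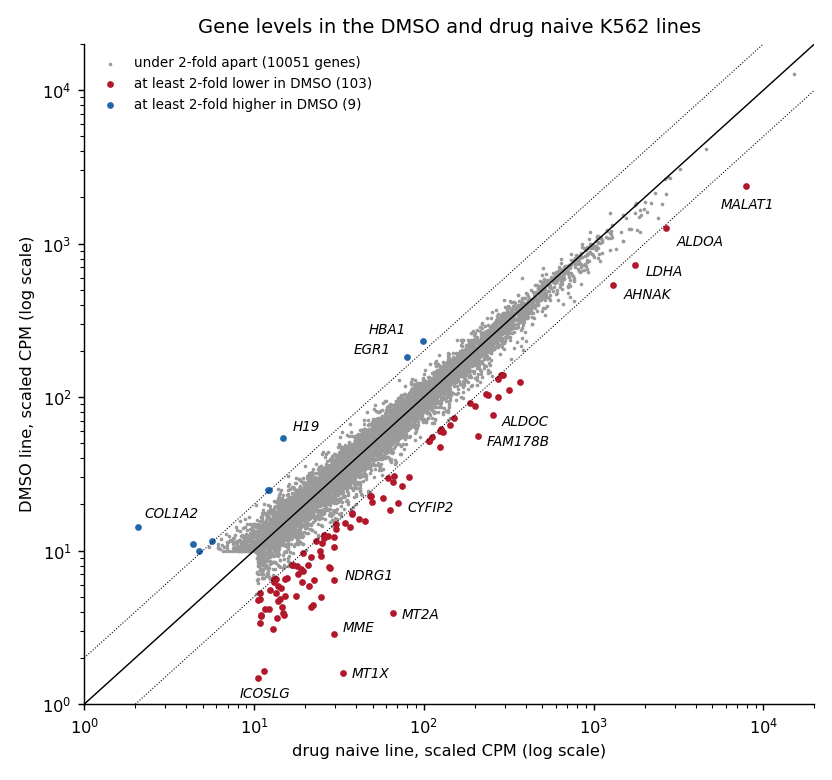
Scaled CPM (CPM after TMM scaling) of the 10163 kept genes in the drug naive line (horizontal, log scale) and the DMSO line (vertical, log scale), with 1 point per gene, a solid line of equality and dotted lines at 2-fold. The 103 genes at least 2-fold lower in the DMSO line include abundant transcripts such as MALAT1, ALDOA and LDHA, and the 9 higher genes are few and mostly of low level.

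The label of the samples gives the cell type as erythroblast. GATA1, the main erythroid transcription factor, had 207.2 scaled CPM in the drug naive and 215.1 in the DMSO line. HBB, the adult beta chain, was under the level limit, with 1 count in the drug naive and 45 in the DMSO library and 108, 79, 80, 5 and 27 in the DasR libraries. The fetal chain HBG2 had 25382 and 21995 counts in the controls. The 17 kept erythroid transcription factors and signalling genes had a median log2 ratio of 0.00, with 8 higher and 9 lower and none 2-fold apart.

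Metallothioneins gave the largest ratios of the comparison. MT1X (chr16:56716382-56718108 in hg19) had 33.4 scaled CPM in the drug naive and 1.60 in the DMSO line, and 2.20, 1.43, 1.44, 2.40 and 3.06 in the 10, 15, 25, 50 and 200 nM DasR lines. It was thus 20.8-fold lower in the DMSO line (15.1 to 29.5). MT2A (chr16:56642496-56643409 in hg19) had 65.6 and 3.91 in the controls and 5.81, 2.35, 1.84, 4.61 and 4.43 in the DasR lines, a ratio of 16.8-fold (13.6 to 20.9). For both genes the drug naive line stood alone, with the other 6 lines all far below it. MT1G and MT1E, which were under the level limit, had 189 and 56 counts in the drug naive line against 5 and 0 in the DMSO line. The counting could split reads between near-identical metallothionein copies, so the share of each copy is uncertain. SLC30A1, a zinc exporter that is also a target of the metal sensor, was 2.06-fold lower in the DMSO line (1.78 to 2.37), at 25.9 against 12.6 scaled CPM. MTF1, the sensor itself, had 30.8 and 27.5 scaled CPM. Of the 14 listed metallothionein and zinc carrier genes 7 were kept, and these 3 were the ones at least 2-fold lower (42.9%, against 1.01% of all kept genes). The median log2 ratio of the 7 was -0.24, with 5 lower and 2 higher. With the limit at 1 CPM in either line, the median of the members then kept was -1.04. MT1X and MT2A passed the limit through the drug naive line alone, and the 5 genes that reached it in both lines had a median of -0.16, with 1 of them, SLC30A1, 2-fold lower. Scaled by library totals SLC30A1 was 1.97-fold lower, which left MT1X and MT2A at 2-fold.

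Genes of glycolysis and hypoxia were lower in the DMSO line as a group. Of the 38 listed, 34 were kept, 32 of them lower, with a median log2 ratio of -0.70 against 0.01 for all kept genes. At least 2-fold lower were 12 of the 34 (35.3% of the list, against 1.01% of all kept genes) and at least 1.5-fold lower 20 of them (58.8%, against 3.24%). Scaled by library totals, 9 were at least 2-fold lower, without BNIP3, PDK1 and P4HA2. All but NDRG1 of the 34 reached 10 CPM in both controls. The summed level of the list was 17522 scaled CPM in the drug naive line, 11217 in the DMSO line, and 9462, 10054, 9609, 10289 and 12384 in the 10, 15, 25, 50 and 200 nM DasR lines. Split by role, the 20 enzymes and transporters of glycolysis had a median of -0.58 and the 14 other members, none of them higher in the DMSO line, one of -1.01.

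The strongest of these was NDRG1, a stress gene raised by hypoxia, with 29.6 scaled CPM in the drug naive line, 6.46 in the DMSO line and 3.86, 8.74, 3.73, 2.07 and 7.18 in the 10, 15, 25, 50 and 200 nM DasR lines. It was 4.58-fold lower in the DMSO than the drug naive line (3.84 to 5.50). ALDOC, a glycolytic aldolase, had 256.2 and 76.1 in the controls and 35.6, 43.3, 35.5, 47.7 and 71.8 in the DasR lines, with a ratio of 3.36-fold (3.19 to 3.55). In both genes the drug naive value was above that of the 6 other lines. P4HA1, a prolyl hydroxylase of collagen, had 274.5 scaled CPM in the drug naive and 100.9 in the DMSO line, against 52.9 to 79.1 in the DasR lines, a ratio of 2.72-fold (2.59 to 2.85). LDHA, which converts pyruvate to lactate, had 1749 and 727.8 in the controls and 814.6, 690.4, 657.1, 888.6 and 1168 in the DasR lines, a ratio of 2.40-fold (2.36 to 2.45). The DMSO value of LDHA thus lay among those of the DasR lines, while P4HA1 was lower still in each of the DasR lines.

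Among other members of the list, EGLN3, an oxygen sensor that marks HIF for degradation, was 2.82-fold lower (2.43 to 3.28) and the neuronal enolase ENO2 2.81-fold lower (2.56 to 3.08). BNIP3L and BNIP3, which direct mitochondria to autophagy, were 2.31-fold and 2.07-fold lower. PDK1, a kinase that inhibits pyruvate dehydrogenase, was 2.06-fold lower, at 107.0 against 51.8 scaled CPM. MIR210HG, the host transcript of a hypoxia miRNA and not on the list, had 17.7 and 5.06 scaled CPM and was 3.50-fold lower (2.84 to 4.33). It passed the level limit through the drug naive line alone. CA9, a surface carbonic anhydrase raised by HIF, was under the level limit, with 97 counts in the drug naive line, 8 in the DMSO line and 0, 0, 2, 3 and 65 in the DasR lines. GAPDH, often used as a reference for RNA levels, was 1.39-fold lower in the DMSO line (1.37 to 1.40), and PGK1, used in the same way, had a log2 ratio of -0.70. HK1 and PFKM, the 2 list members that were not lower, had log2 ratios of 0.05 and 0.27.

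Set against the drug naive line, the median log2 ratio of the 34 genes was -1.05, -0.93, -1.03, -0.94 and -0.54 in the 10, 15, 25, 50 and 200 nM DasR lines, where all kept genes had -0.03 to -0.05. Set against the DMSO line it was -0.18, -0.06, -0.14, -0.10 and 0.18. The choice of control thus moved this list from well below the control to near it in all 5 DasR lines. The DMSO and DasR ratios to the drug naive line share that 1 library and are not independent of each other. Single members lay below both controls in all 5 DasR lines, among them ALDOC, P4HA1 and PDK1. VEGFA, a HIF target that drives vessel growth, did so too, with 847.7 and 542.9 scaled CPM in the controls and 75.9 to 248.5 in the DasR lines.

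**Figure D2:**
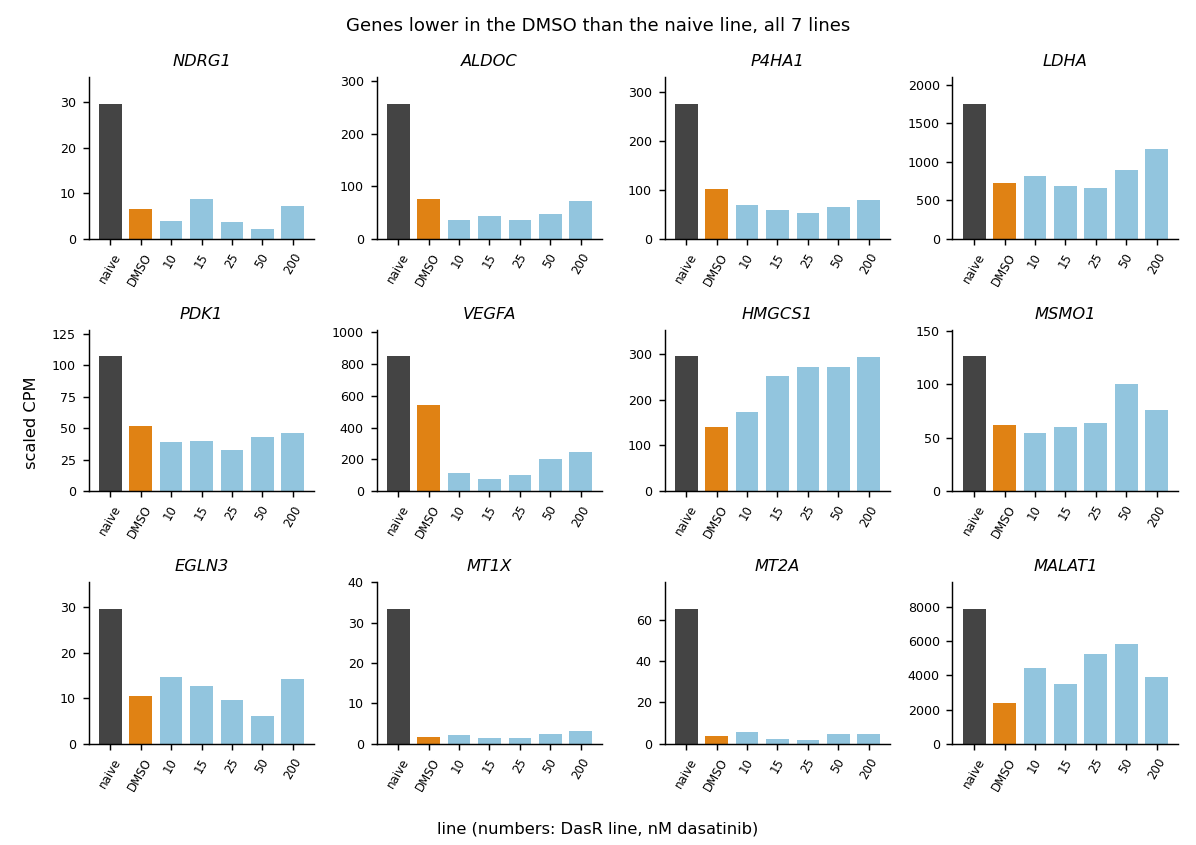
Scaled CPM of 12 genes lower in the DMSO than the drug naive line, in the drug naive line (grey), the DMSO line (orange) and the 5 DasR lines (blue, labelled by nM dasatinib), 1 library a bar and no error bar. NDRG1, ALDOC, P4HA1, LDHA, PDK1, MT1X, MT2A and MALAT1 are highest in the drug naive line, as is HMGCS1, at 294.2 against 139.1 in the DMSO line and 173.6 to 293.3 in the DasR lines.

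Cholesterol synthesis genes were lower in the DMSO line by a smaller and more even step. Of the 25 kept genes of 26 listed, 24 were lower, with a median log2 ratio of -0.56. At least 2-fold lower were 2 of them (8.0%, against 1.01% of all kept genes) and at least 1.5-fold lower 12 (48.0%, against 3.24%). Scaled by library totals, 1 was at least 2-fold lower, since MSMO1 came to 1.95-fold. HMGCS1, which makes the precursor of mevalonate, had 294.2 scaled CPM in the drug naive line, 139.1 in the DMSO line and 173.6, 251.9, 270.4, 271.5 and 293.3 in the 10, 15, 25, 50 and 200 nM DasR lines. It was 2.12-fold lower in the DMSO line (2.03 to 2.21), where it had the lowest value of the 7 lines. MSMO1, a sterol demethylase, had 125.8 and 61.8 in the controls and 54.7, 59.8, 63.5, 100.1 and 75.5 in the DasR lines, a ratio of 2.03-fold (1.91 to 2.17). PMVK was the 1 member higher in the DMSO line, at 8.18 and 10.6. Against the drug naive line the median of the list in the 5 DasR lines was -0.54, -0.22, -0.29, -0.19 and -0.25, and against the DMSO line -0.07, 0.27, 0.16, 0.33 and 0.36. The sign of the median therefore turned with the choice of control in the lines from 15 to 200 nM.

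Of single genes, MALAT1, an abundant nuclear noncoding RNA, had the largest difference in level. It had 7909 scaled CPM in the drug naive line, 2379 in the DMSO line and 4438, 3479, 5261, 5867 and 3902 in the 10, 15, 25, 50 and 200 nM DasR lines. Of the 7 lines, the drug naive line was the highest and the DMSO line the lowest, a ratio of 3.32-fold (3.29 to 3.36). It made up 0.768% of the counts of the drug naive library and 0.241% of those of the DMSO library. The preparation depleted ribosomal and noncoding RNA, and the part of that step in the levels of noncoding transcripts was not tested. SNORD3A, a small nucleolar RNA, was also lower, at 48.7 against 22.7 scaled CPM, and its copies cannot be separated with certainty. Of the 6 kept genes of the list of structured RNAs, SNORD3A included, 5 were lower, with a median log2 ratio of -0.33. RN7SK, which holds back transcription elongation, had 247.0 and 162.7 scaled CPM, and RN7SL2, an RNA of the signal recognition particle and the 1 member not lower, 247.7 and 247.9.

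Other genes with the largest ratios lower in the DMSO line came from no single list. Of those named here, only CYFIP2 and FAM178B reached 10 CPM in both controls. The rest passed the level limit through the drug naive line alone, so that the limit itself favoured a lower value in the DMSO line. MME, a surface peptidase also known as CD10, had 29.5 scaled CPM in the drug naive line, 2.88 in the DMSO line and 11.8, 11.1, 6.87, 4.37 and 10.2 in the 10, 15, 25, 50 and 200 nM DasR lines, and its ratio of 10.2-fold (7.99 to 13.3) put the DMSO line below all others. ICOSLG, a ligand of T cell costimulation, had 10.5 and 1.48 in the controls and 3.97, 1.57, 3.78, 14.4 and 12.0 in the DasR lines, a ratio of 7.08-fold (4.96 to 10.4). CXCL8, a chemokine that draws neutrophils, had 22.3 and 4.44 in the controls and 0.144, 0.107, 0.597, 2.83 and 8.55 in the DasR lines, a ratio of 5.02-fold (4.06 to 6.25). These 3 genes did not share an order over the DasR lines. ETS1, a transcription factor, had 24.8 and 5.02 scaled CPM in the controls and at most 0.192 in any DasR line, and CYFIP2, a regulator of actin assembly, had 70.5 and 20.3 against at most 0.758. For ETS1 and CYFIP2 the DMSO line stood between the drug naive line and all 5 DasR lines. CD44, a receptor for hyaluronan, had 27.8 and 7.77 in the controls and 13.8, 1.60, 31.8, 97.5 and 29.2 in the DasR lines, so that its 3 highest DasR values were above both controls. PPFIA4, PAEP, CPZ, MYH15, AQP10, FAM178B, LRP1, PNCK and OSGIN1 were between 3.50-fold and 5.06-fold lower. The gene with the identifier 100506053, which has no symbol in the tables used, had 11.5 scaled CPM in the drug naive and 1.65 in the DMSO line.

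Single genes of iron and heme handling were also at least 2-fold lower. SLC25A37, the mitochondrial iron importer of red cell precursors, had 275.4 and 132.1 scaled CPM in the controls (2.09-fold lower, 2.00 to 2.18) and CPOX, an enzyme of heme synthesis, 124.5 and 60.5 (2.06-fold, 1.93 to 2.19). Each was the 1 member at least 2-fold apart among the 17 kept genes of its list (5.88%, against 1.01% of all kept genes), and the list medians were -0.16 for iron and -0.03 for heme, with 7 genes higher and 10 lower in both lists. Scaled by library totals alone, CPOX was 1.98-fold lower, which left no gene of the heme list at 2-fold. FTH1, the ferritin heavy chain, had 2388 and 1480. The 26 endoplasmic reticulum chaperones and unfolded protein response genes had a median log2 ratio of -0.29, with 25 lower and none 2-fold apart, and the 33 actin and intermediate filament genes had the same median with 27 lower. OSGIN1, a target of the antioxidant factor NRF2, was 3.50-fold lower, but it passed the level limit through the drug naive line alone. The 23 kept NRF2 genes had a median of -0.29 with 20 lower, and OSGIN1 was the 1 at least 2-fold lower (4.35%, against 1.01% of all kept genes). The 22 of them that reached the limit in both lines had a median of -0.26, with none 2-fold lower. NFKBIA, the inhibitor of NF-kappaB, had 18.0 and 7.98 scaled CPM and was 2.26-fold lower (1.89 to 2.70). The 10 kept NF-kappaB and inflammatory genes had a median of -0.01, with 4 higher and 6 lower. NFKBIA and CXCL8, the 2 at least 2-fold lower, passed the level limit through the drug naive line alone. The 8 genes that reached it in both lines had a median of 0.03, with none 2-fold lower. BCL6, a transcriptional repressor and target of STAT5, was 2.40-fold lower (2.15 to 2.67), while PIM1, another target of STAT5, had a log2 ratio of 0.02. The 12 kept STAT5 targets had a median of 0.02, with 7 higher and 5 lower. BCL6 was the 1 at least 2-fold lower (8.33%, against 1.01% of all kept genes), and 3 were at least 1.5-fold lower.

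The 9 genes at least 2-fold higher in the DMSO line formed no common group. COL1A2, a chain of type I collagen (chr7:94024207-94060539 in hg19), had 2.06 scaled CPM in the drug naive line, 14.2 in the DMSO line and 0.397, 0.143, 0.0498, 0.432 and 0.183 in the 10, 15, 25, 50 and 200 nM DasR lines, and was 6.88-fold higher in the DMSO line (4.98 to 9.71). CCNYL2 had 4.36 and 11.0 in the controls and at most 1.42 in a DasR line. In both genes the DMSO line was the highest of the 7. COL1A2 is also a fibroblast marker, and of the 11 fibroblast and endothelial markers listed it was the 1 that was kept. COL1A1, the partner chain, had 53 and 117 counts, COL3A1 2 and 3, DCN 9 and 7, and PDGFRB 26 and 4. CDH5, FAP and LUM were at 0 counts in both controls, and the summed level of the list was 12.1 scaled CPM in the drug naive and 24.1 in the DMSO line. The rise of that sum was about that of COL1A2 alone, at 2.06 and 14.2, which passed the level limit through the DMSO line alone. Among 10 T and NK cell markers CD3D alone was kept, at 16.8 and 8.06 scaled CPM, with CD3E at 3 and 5 counts and LCK at 0 in both.

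H19, an imprinted noncoding RNA, had 14.9 scaled CPM in the drug naive line, 53.9 in the DMSO line and 448.9, 728.6, 532.3, 162.2 and 144.9 in the DasR lines. It was 3.62-fold higher in the DMSO line (3.19 to 4.11), which stood between the drug naive line and all 5 DasR lines. HBA1, an alpha globin chain, had 99.1 and 231.4 in the controls and 1406, 1425, 1301, 630.6 and 197.2 in the DasR lines, and was 2.34-fold higher (2.22 to 2.46). Its near-identical copy HBA2 had 71.8 and 129.7, and reads of the 2 copies may have been split between them. HBB, under the level limit, was also higher in the DMSO library. The other 4 kept globin chains had log2 ratios of -0.46 for HBG2, -0.36 for HBG1, -0.18 for HBE1 and 0.26 for HBZ. EGR1, an immediate early transcription factor induced through the ERK pathway, had 80.0 and 181.3 in the controls and 77.2, 106.8, 138.2, 198.0 and 450.9 in the DasR lines, a ratio of 2.27-fold (2.14 to 2.40). Immediate early genes as a list did not follow it, since the 13 kept members had a median log2 ratio of -0.24 with 4 higher and 9 lower. SGK1 was 2.25-fold lower (1.82 to 2.79), but it passed the level limit through the drug naive line alone. The 11 members that reached the limit in both lines had a median of -0.16, with EGR1 2-fold higher and none 2-fold lower. HIST2H4A and HIST2H4B, near-identical histone genes whose reads cannot be told apart, had log2 ratios of 1.03 and 1.02. CCDC78 and NLRX1, at 9.91 and 11.5 scaled CPM in the DMSO line, had ratios of 2.09-fold and 2.03-fold. Like CCNYL2, they passed the level limit through the DMSO line alone.

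**Figure D3:**
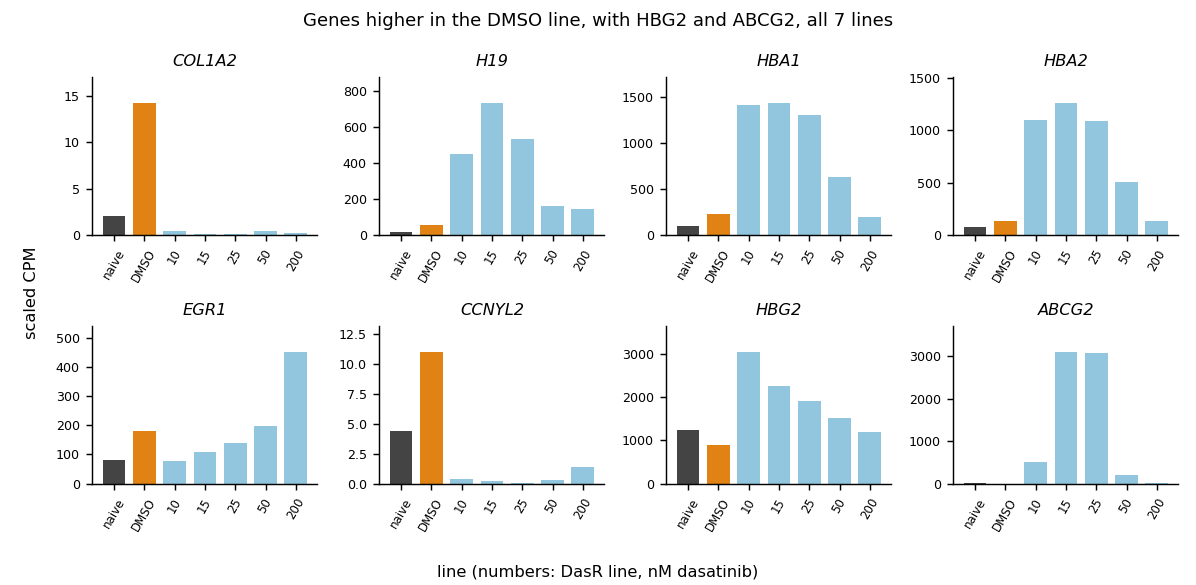
Scaled CPM of 6 genes higher in the DMSO than the drug naive line, with HBG2 and ABCG2 for comparison, in the drug naive line (grey), the DMSO line (orange) and the 5 DasR lines (blue, labelled by nM dasatinib), 1 library a bar and no error bar. COL1A2 and CCNYL2 are highest in the DMSO line, while H19 stands at 14.9 and 53.9 in the controls and at 144.9 to 728.6 in the DasR lines.

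Genes of growth were slightly higher in the DMSO line in large numbers and by small steps. Of 79 genes of ribosome assembly and RNA polymerase I, all kept, 71 were higher, with a median log2 ratio of 0.26. Of 53 kept MYC target genes 50 were higher, with a median of 0.27 and HK2, which is also a hypoxia gene, the lowest at -0.97. None of the members of either list was 2-fold higher, and at least 1.5-fold higher were 2 of the 79 (2.53%) and 3 of the 53 (5.66%), against 1.17% of all kept genes. DDX21, a nucleolar helicase, had 647.3 and 751.9 scaled CPM in the controls and 678.7 to 816.7 in the DasR lines, and the ribosomal chaperone NPM1 had 1483 and 1526. MYC itself had 237.0 and 232.3. Against the drug naive line the median of the ribosome assembly list was 0.67, 0.78, 0.80, 0.59 and 0.65 in the 10, 15, 25, 50 and 200 nM DasR lines, and against the DMSO line 0.38, 0.46, 0.51, 0.38 and 0.44. This list thus lay above both controls in all 5 DasR lines, by a smaller step from the DMSO line.

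The 55 G1/S and DNA replication genes had a median of 0.21 with 49 higher, and MCM7, a subunit of the replicative helicase, had 480.9 and 567.0 scaled CPM. The 78 mitochondrial ribosomal proteins had a median of 0.19 with 72 higher, and the 35 proteasome subunits one of 0.21 with 32 higher. The 63 kept genes of mitosis had a median of 0.03, and the 79 cytosolic ribosomal proteins one of -0.07 with 63 lower. Genes of ribosome assembly and of the ribosome itself therefore had medians on opposite sides of that of all genes. Against the DMSO line the replication genes had medians of 0.02, 0.11, 0.10, 0.00 and 0.03 in the DasR lines, and against the drug naive line 0.30, 0.34, 0.35, 0.20 and 0.22.

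**Figure D4:**
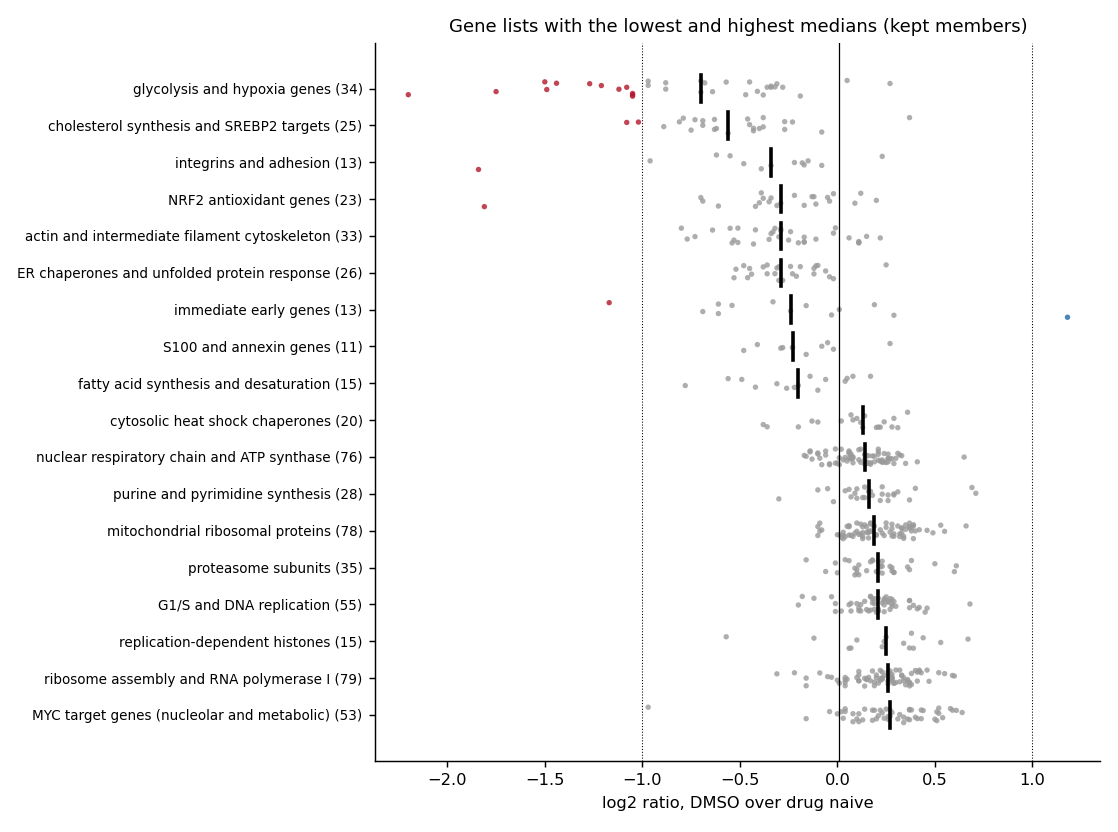
Log2 ratio of DMSO over drug naive (horizontal) for the kept members of the 9 gene lists with the lowest and the 9 with the highest medians among lists with at least 10 kept members (number in brackets), 1 point per gene, with red or blue for genes at least 2-fold lower or higher. Thick bars are list medians, the thin line is the median of all kept genes and dotted lines mark 2-fold; the glycolysis and hypoxia list is lowest at -0.70 and the MYC list highest at 0.27.

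Genes tied to the resistance of the DasR lines were less than 1.5-fold apart between the controls where they were well covered. The 7 kept genes of the study, GUSB and MYC among them, were all lower in the DMSO line, with a median log2 ratio of -0.18. BCR had 200.5 and 177.6 scaled CPM and ABL1 359.5 and 315.9 in the controls, 1.13-fold and 1.14-fold lower in the DMSO line, and the lowest DasR values were 456.8 for BCR and 906.3 for ABL1. CRKL, an adaptor that BCR::ABL1 phosphorylates, had 763.7 and 569.6 in the controls and 625.0 to 1458 in the DasR lines, and its ratio was 1.34-fold. GUSB, a PCR reference gene, had 105.0 and 100.5, with an interval that included no difference (0.986 to 1.11). ABCG2, the drug efflux transporter, had 75 and 14 counts in the drug naive and DMSO lines, under the level limit in both, and was 6.38-fold lower in the DMSO line (3.58 to 12.2). Its DasR values were 513.9, 3099, 3084, 199.3 and 2.38 scaled CPM from 10 to 200 nM. A ratio of a DasR line to the DMSO line is thus larger for ABCG2 than one to the drug naive line, and the 200 nM value, with 52 counts, lay between the 2 controls. SMO, FZD3 and MAPK4 had at most 10 counts in either control, and SPP1 had 0 in both. RBM47 and G0S2 were well covered and close, at 23.6 and 20.2 for RBM47 and 64.5 and 59.6 scaled CPM for G0S2.

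The distance between the controls was small beside that of either to a resistant line. Counted in the same way, with genes at 10 CPM or more in either line of a pair, 14.1%, 17.6%, 15.3%, 11.8% and 13.2% of genes were at least 2-fold apart between the drug naive line and the 10, 15, 25, 50 and 200 nM DasR lines. Against the DMSO line the shares were 12.0%, 15.2%, 12.8%, 10.1% and 10.3%, lower in each case. Among DasR lines that the study groups together, 10 and 15 nM differed by 2.81%, 10 and 25 nM by 1.12%, 15 and 25 nM by 1.25%, and 50 and 200 nM by 3.13%. The 1.10% between the controls was near the share between the closest DasR lines by this count. With 1 set of genes for all pairs (at least 10 CPM in 2 of the 7 libraries) it was not, since 113 genes separated the controls, 150 the 10 and 25 nM lines and 208 the 15 and 25 nM lines. The pairs share libraries, so their shares are not independent of one another.

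**Figure D5:**
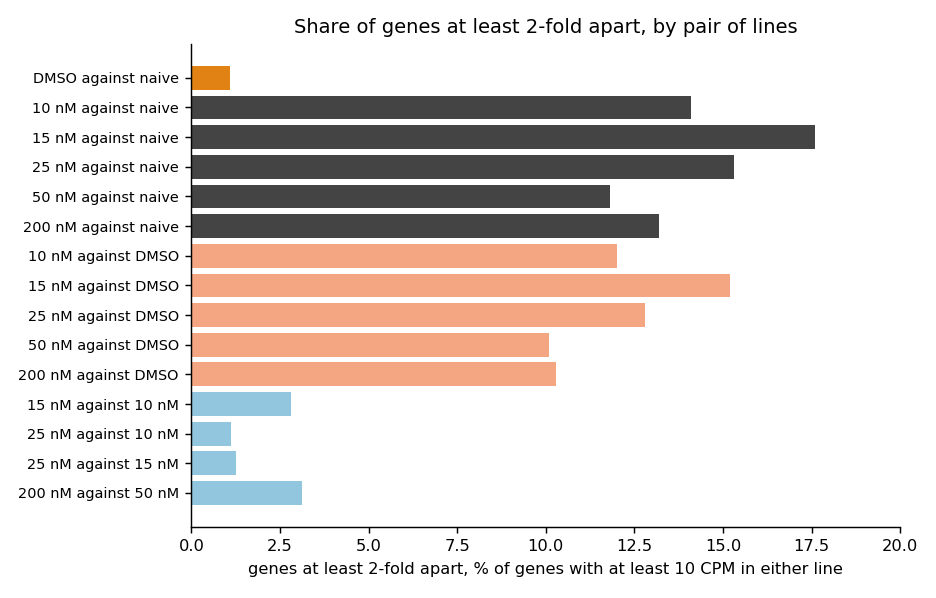
Share of genes at least 2-fold apart, in percent of the genes with at least 10 CPM in either line of the pair (horizontal, from 0), for the DMSO against the drug naive line (orange), each DasR line against the drug naive line (grey) and the DMSO line (light orange), and DasR lines of the same stage (blue). The bar of the controls, at 1.10%, is near those of the DasR pairs 10 and 25 nM (1.12%) and 15 and 25 nM (1.25%) by this count.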

How the data were processed

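The authors prepared directional RNA libraries of 7 K562 lines, depleted of ribosomal and noncoding RNA, sequenced paired ends and aligned them to hg19 with STAR. The submitters' processing notes name featureCounts, edgeR and FastQC. Whether counting used strand is not given in the sources used here, so reads of overlapping antisense genes cannot be told apart. The deposited values used are counts of reads per gene ID, without normalization, and the authors' gene lengths. The deposited tables of the study's comparisons, with fold changes, mean levels, p-values and FDR values, were not used beyond gene names and lengths.

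Counts were scaled by TMM factors (edgeR 4.0.16, R 4.3.3) from genes that reached 10 CPM in 2 or more of the 7 libraries, and scaled CPM are CPM on the scaled totals. The level limit used CPM of the library totals. Ratios are of scaled CPM, with exact (Clopper-Pearson) 95% intervals of the split of a gene's counts between the 2 libraries, and 2-fold was the call. No kept gene had 0 counts in a control. PCR reads without molecular identifiers are not independent molecules, so the intervals may be too narrow. In the medians of DasR lines, values under 3 counts were set to 3, which is 0.147 scaled CPM in the drug naive and 0.123 in the DMSO line.

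Symbols, from the deposited tables and RefSeq, were matched for 23738 of the 25702 IDs. GENCODE on GRCh37, the build of hg19, placed 9862 kept genes, and promoters are from RefSeq on GRCh38.p14, with a window for 8126 kept genes. Named genes are the 20 with the highest and the 20 with the lowest ratio, in each of 61 lists the most abundant member and up to 6 at least 2-fold apart, the genes of the study, and the 10 with the largest differences in level. Other genes named were chosen after their values were seen. The comparison, the lists and their members were chosen with earlier results of these data known. Lists held 1758 genes, of which 22 symbols were not matched.

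On simulated counts for the 10163 genes, with counting error only and 200 of them changed by 4-fold, the ratios were recovered. That checks the calculation and not the variation between libraries. Alternatives covered the scaling, the level limit, the fold, the value for low counts and the depth. All 7 columns of counts were used.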

Additional observations from a re-analysis of the deposited data

How the results depend on the processing

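No paired analysis was possible because each line is 1 library, and for the same reason no replicate could be left out. The number of genes at least 2-fold apart followed the level limit and the fold. With at least 1 CPM in either line it was 513 genes (161 higher and 352 lower in the DMSO line), with at least 10 CPM in both lines 57 (5 and 52), and with at least 1 count in either line 3174 (1338 and 1836). At 1.5-fold it was 448 genes (119 and 329), at 4-fold 11 (1 and 10), and with a counting interval wholly beyond 2-fold 70 (4 and 66). In each of these the lower genes outnumbered the higher ones. DESeq2 size factors gave 112 genes, TMM from the 2 controls 115, a prior count of 2 110, and library totals 96 (11 and 85). With library totals 18 of the 103 lower genes fell under 2-fold, CD3D and DLK1 among them. Leaving MALAT1 out of the totals, an alternative chosen after seeing the data, gave 114. Library totals moved the median of all genes by 0.06 on the log2 scale. They moved the medians of ribosome assembly to 0.31, the respiratory chain to 0.20, G1/S genes to 0.27, mitosis to 0.09, proteasome to 0.27, translation factors to 0.16, splicing factors to 0.15, epigenetic genes to 0.06, and cytosolic ribosomal proteins and lysosome to -0.02. The count between the 25 and 15 nM DasR lines was 208 with the level limit over all 7 libraries, for 125 in the pair itself. The other 62 counts for pairs of lines stayed within 1.5 times, and 277 list medians under alternatives stayed within an interval set by the order of the list's own members around their median (their whole range in the shortest lists). Of the log2 ratios of named genes under alternatives 448 stayed within their counting interval and 48, each of them with library totals, did not. No list median whose interval lay wholly on one side of 0 changed sign, and no named gene at least 2-fold apart did. With library totals MYC moved from -0.03 to 0.03, MCL1 from -0.02 to 0.04 and B2M from -0.01 to 0.05. Some medians whose interval held 0 changed sign, among them erythroid transcription factors (just below 0 to 0.05), heme synthesis (-0.03 to 0.03) and NF-kappaB genes (-0.01 to 0.04) with library totals, and the Notch pathway (-0.20 to 0.19), drug transporters (-0.09 to 0.01) and interferon genes (-0.06 to 0.01) with at least 1 CPM in either line. The split of the glycolysis and hypoxia list by role was also chosen after seeing the data. Depth limits genes under 10 CPM, where ABCG2 had 75 and 14 counts.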

Other observations

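No chromosome set the controls apart as a whole. The median log2 ratio of the genes of a chromosome lay between 0.04 below (chromosome 18) and 0.03 above (chromosome 16) that of all kept genes.

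Shorter genes were slightly higher in the DMSO line. In 4 bins of the deposited gene length of about equal size, from short to long, the median log2 ratio was 0.08, 0.03, 0.00 and -0.07 over 2498 to 2500 genes each. Of the 6 kept small nucleolar RNAs 4 were at least 2-fold lower, against 1.01% of all kept genes. These were SNORD3A, SNORD3B-1, SNORD3B-2 and SNORD3D, copies of 1 RNA that cannot be separated, and all but SNORD3A passed the limit through the drug naive line alone.

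CDKN1C, an imprinted inhibitor, had 23.8 scaled CPM in the drug naive and 12.7 in the DMSO line, and CDKN1A had 18.1 and 11.0, with 17.0 to 43.3 in the DasR lines. Of the 12 kept genes of the list of cyclin-dependent kinase inhibitors and senescence genes 9 were lower and none 2-fold apart, with a median of -0.16. Of the 15 kept replication-dependent histones 13 were higher, with a median of 0.25. HIST2H4A and HIST2H4B are not on that list. Genes of purine and pyrimidine synthesis had a median of 0.16 with 24 of 28 higher. PFAS, a purine synthesis enzyme, had 51.0 and 83.3 scaled CPM in the controls and 104.9 to 142.5 in the DasR lines, so the DMSO line stood between the drug naive line and all 5 DasR lines.

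Imprinted genes differed from one another. H19 was higher in the DMSO line, while DLK1, a growth regulator of the same list, was 2.03-fold lower (1.94 to 2.11), at 283.3 and 139.8 scaled CPM in the controls against 391.7 to 886.0 in the DasR lines. HILPDA, a lipid droplet protein raised by hypoxia, was 2.46-fold lower (2.10 to 2.88).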
